A study of Camelus dromedarius with 10 samples.

Results

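The protein kinase C (PKC) family and DGKG were followed in the supraoptic nucleus (SON) of the dromedary camel. DGKG encodes a diacylglycerol kinase, and the PKC members were PRKCA, PRKCB, PRKCD, PRKCE, PRKCH, PRKCQ, PRKCI and PRKCZ. These 9 genes were found by their symbols among 22444 Ensembl gene IDs in the count table, each symbol being paired with 1 ID. DGKG was selected on its difference between dehydrated and control camels, since its symbol came from a table sorted by that difference. The 8 PKC genes are all in a table of enzymes expressed in the control SON, which was not made from the difference, but they were taken up with results of this comparison already known. The values of all 9 are therefore a description of these libraries.

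Diacylglycerol is made at the membrane when phospholipase C, acting below Gq-coupled receptors, cleaves phosphatidylinositol bisphosphate. The same cut releases inositol trisphosphate, which opens calcium stores. Conventional PKCs need both calcium and diacylglycerol, another class needs diacylglycerol but not calcium, and atypical PKCs need neither. Diacylglycerol kinases end the signal by phosphorylating diacylglycerol to phosphatidic acid. In the SON, magnocellular neurones make vasopressin and oxytocin and release them into the blood from the posterior pituitary, and PKC is known to act on the excitability and secretion of such neurones.

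The camels were males, 4 to 5 years old. In the control group (n = 5) they drank ad libitum, and in the water deprivation group (WD, n = 5) they had food but no water for 20 days. Each library came from punches of the rostral SON of 1 side, and all were stranded total RNA libraries made after depletion of ribosomal RNA. A punch holds glia, vessels and neighbouring neurones as well as magnocellular neurones, so fewer cells of a type and less RNA per cell cannot be told apart. Libraries are named here by group and number (CON2, CON3, CON4, CON5 and CON13, and WD6, WD7, WD8, WD9 and WD15).

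Between 1665098 and 8126641 read pairs were counted on genes per library. Because 5 gene IDs took 27.7% to 76.1% of a library, only 397495 read pairs in CON13 and 1106575 in WD6 fell on the remaining genes, against 5872137 in WD9. Levels are given as CPM after TMM normalization, which are counts brought to a common library size with little weight on such dominant genes, and 1 read pair was worth 1.196 CPM in CON13 but 0.0864 CPM in WD9. All 9 members passed the filter on low counts, with between 436 (PRKCH) and 7872 (PRKCA) read pairs over the 10 libraries. Gene lengths were not used, so levels are compared between libraries and not between genes. Of the markers of the magnocellular lineage, SIM1, OTP and PDYN were detected in every library, whereas no ID was matched to AVP or OXT, which were not analysed here.

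DGKG (ENSCDRG00005004703) was lower in every WD library than in every control library. In the control group its level was 30.7 CPM in CON2, 32.2 in CON3, 32.5 in CON4, 32.4 in CON5 and 25.1 in CON13. In the WD group it was 9.49 CPM in WD6, 14.2 in WD7, 14.4 in WD8, 13.6 in WD9 and 10.2 in WD15. The groups did not overlap, and the gap between the lowest control and the highest WD library was wider than the range within either group. The mean was 30.6 ± 3.13 CPM (SD, n = 5) in control and 12.4 ± 2.34 CPM (SD, n = 5) in WD, a log2 fold change of -1.30 (SE 0.19, 95% interval -1.70 to -0.90), or a 2.46-fold lower level. The lowest control value, in CON13, rested on 21 read pairs, and the lowest WD value, in WD6, on 20. Leaving both of these libraries out gave -1.30 again.

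DGKG was the only member called at an adjusted p of 0.05 (edgeR's quasi-likelihood test, Benjamini-Hochberg over 14432 genes). Over all genes tested, 72 were called (0.499%), of which 39 were higher (0.27%) and 33 lower (0.229%) in WD. Nothing is read from the count of 1 in 9, since DGKG was chosen by this contrast. The call of DGKG was lost when libraries were scaled by their totals alone (log2 fold change -1.12, SE 0.42), a scaling under which 10 of all genes were called. Between WD and control libraries there was no overlap for 2 of the 9 members, DGKG and PRKCE, and for 378 of all genes tested (2.62%).

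**Figure D1:**
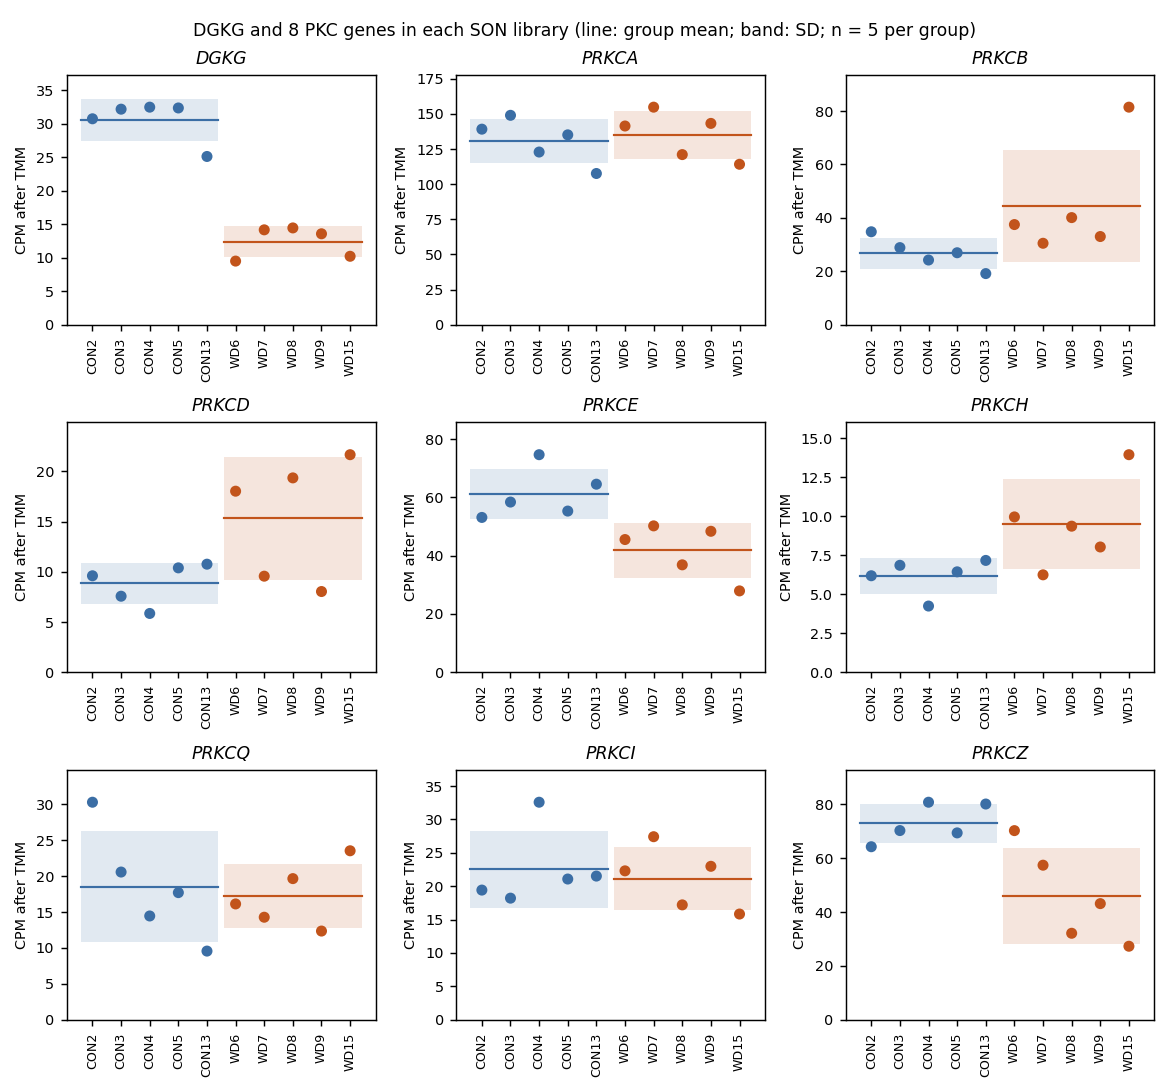
Level of DGKG and the 8 PKC genes (y axis, CPM after TMM normalization, starting at 0) in each library (x axis, control in blue and WD in orange). Points are libraries, lines group means and bands ± SD (n = 5 per group). DGKG and PRKCE are lower in every WD library than in every control library, and WD15 stands above the other libraries for PRKCB.

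None of the 8 PKC genes was called, and their adjusted p-values in edgeR's test over all genes ran from 0.298 (PRKCZ) to 0.968 (PRKCA). At an unadjusted p under 0.05 there were 5, as against 9.31% of all genes tested, with estimates above 0 for PRKCB, PRKCD and PRKCH and below 0 for PRKCE and PRKCZ. DESeq2's Wald test also called none of the PKC genes for which it gave an adjusted p. Summed over the 8 genes, the level was 348 ± 16.9 CPM (SD, n = 5) in control and 330 ± 25.96 CPM (SD, n = 5) in WD, with ranges of 320 to 360 and 296 to 361 CPM that overlapped.

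Among the conventional PKCs, PRKCA (ENSCDRG00005020399) encodes PKC alpha, a widely expressed isoform. Its level ran from 108 to 149 CPM in control, with a median of 135, and from 114 to 155 CPM in WD, with a median of 141. Its log2 fold change was 0.039 (SE 0.16, 95% interval -0.30 to 0.37), and each group's range covered most of the other's.

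PRKCB (ENSCDRG00005004483) encodes PKC beta, which both neurones and cells of the immune system express. It was found at 34.8 CPM in CON2, 28.9 in CON3, 24.2 in CON4, 26.9 in CON5 and 19.1 in CON13. The WD libraries held 37.5 CPM in WD6, 30.5 in WD7, 40.1 in WD8, 33.0 in WD9 and 81.5 in WD15. WD6, WD8 and WD15 lay above all controls, WD7 and WD9 lay below CON2, and WD15 stood far above every other library. This gave a log2 fold change of 0.70 (SE 0.26, 95% interval 0.16 to 1.24), which was 0.37 without WD15.

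PRKCE, PRKCD, PRKCH and PRKCQ belong to the class that needs diacylglycerol but not calcium, and none of them was called. PRKCE (ENSCDRG00005022256) encodes PKC epsilon, an isoform abundant in neurones. Its level was 53.1 CPM in CON2, 58.4 in CON3, 74.7 in CON4, 55.3 in CON5 and 64.6 in CON13, against 45.6 CPM in WD6, 50.3 in WD7, 36.9 in WD8, 48.4 in WD9 and 27.9 in WD15. All 5 WD libraries were below all 5 control libraries, with WD7 and CON2 close to each other. The log2 fold change was -0.55 (SE 0.19, 95% interval -0.94 to -0.15), and its adjusted p in edgeR's test was 0.321.

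PRKCD (ENSCDRG00005013096) encodes PKC delta, known in myeloid cells and in apoptosis as well as in neurones. In control it was measured at 9.61 CPM in CON2, 7.57 in CON3, 5.85 in CON4, 10.4 in CON5 and 10.8 in CON13. In WD it was measured at 18.0 CPM in WD6, 9.57 in WD7, 19.4 in WD8, 8.04 in WD9 and 21.7 in WD15. The WD libraries were split, with WD6, WD8 and WD15 above every control and WD7 and WD9 within the control range. The log2 fold change was 0.81 (SE 0.30, 95% interval 0.17 to 1.45), on a total of 644 read pairs.

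PRKCH (ENSCDRG00005000082) encodes PKC eta, known in epithelia, endothelium and T cells. It ranged from 4.25 to 7.17 CPM in control, with a median of 6.44, and from 6.25 to 14.0 CPM in WD, with a median of 9.37. Only WD7 among the WD libraries lay within the control range, and WD15 was again the highest. PRKCH had a log2 fold change of 0.65 (SE 0.29, 95% interval 0.042 to 1.25), with 6 read pairs in CON13, its shallowest library.

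PRKCQ (ENSCDRG00005014053) encodes PKC theta, which is best known for signalling in T cells. It ran from 9.57 to 30.3 CPM in control and from 12.4 to 23.5 CPM in WD, so that the WD libraries lay wholly within the control range. The log2 fold change was -0.17 (SE 0.26, 95% interval -0.72 to 0.39), and it changed sign without CON2, the highest control library (0.055).

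Of the atypical PKCs, PRKCZ (ENSCDRG00005011558) encodes PKC zeta and, in brain, a shorter constitutively active form known as PKM zeta. Counts per gene do not separate these forms. PRKCZ was at 64.2 CPM in CON2, 70.3 in CON3, 80.8 in CON4, 69.4 in CON5 and 80.1 in CON13. In the WD group it was at 70.2 CPM in WD6, 57.4 in WD7, 32.1 in WD8, 43.1 in WD9 and 27.3 in WD15. The control libraries were close together, whereas the WD libraries were spread from a level within the control range (WD6) to less than any control. The log2 fold change was -0.67 (SE 0.23, 95% interval -1.15 to -0.20). It was -0.85 without CON13 and WD6 and -0.53 without WD15, the lowest library.

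PRKCI (ENSCDRG00005005504) encodes PKC iota, a polarity kinase. It ranged from 18.2 to 32.6 CPM in control, where CON4 was the highest, and from 15.8 to 27.4 CPM in WD. The groups overlapped, and the log2 fold change of -0.10 (SE 0.22, 95% interval -0.57 to 0.36) changed sign without CON4 (0.071) and with scaling by library totals alone (0.052).

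**Figure D2:**
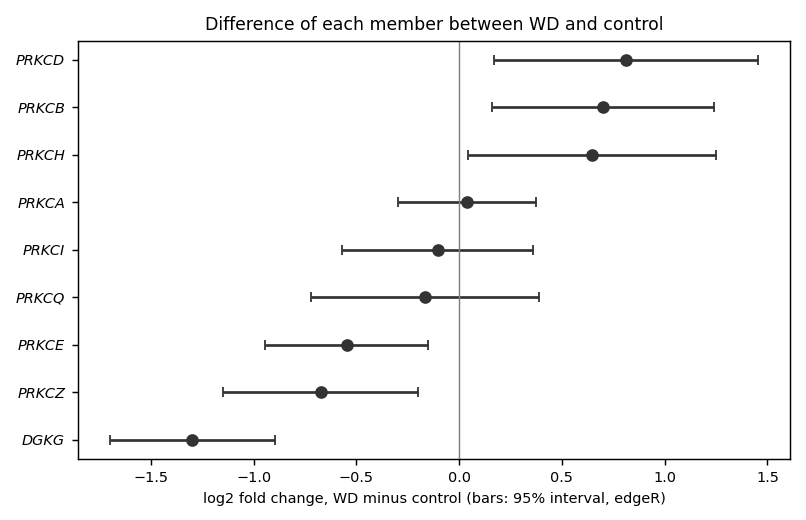
Log2 fold change of each member (x axis, WD minus control, edgeR) with its 95% interval as bars. DGKG, at -1.30, lies lowest, PRKCE and PRKCZ follow with intervals below 0, PRKCA, PRKCI and PRKCQ have intervals that include 0, and PRKCB, PRKCD and PRKCH lie above 0. Intervals are not adjusted for the number of genes.

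The way the members varied among libraries of the same group was not used to choose them. For this, each library's log2 CPM was taken as its deviation from its group mean, and deviations of 2 genes were compared over the 10 libraries with Pearson's r. These correlations are descriptions, and the points share library, depth and normalization. Of 36 pairs of members, 7 had an r of at least 0.8 in size. PRKCE and PRKCZ deviated together within groups (r = 0.81, Spearman's rho = 0.89), as did PRKCE and PRKCI (r = 0.87, rho = 0.90). PRKCD and PRKCH went together as well (r = 0.81, rho = 0.73), and so did PRKCB and PRKCQ (r = 0.81, rho = 0.92). These pairs were also taken without the 2 libraries farthest from the median of the gene named first. PRKCE then had an r of 0.62 with PRKCZ and 0.86 with PRKCI. For PRKCD and PRKCH it was 0.80, and for PRKCB and PRKCQ 0.84.

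Deviations of PRKCH ran opposite to those of PRKCI (r = -0.87, rho = -0.72) and PRKCE (r = -0.82, rho = -0.61), and those of PRKCB opposite to those of PRKCE (r = -0.89, rho = -0.79). Without CON2 and WD15, the 2 libraries farthest from the median of PRKCB, r for PRKCB and PRKCE was -0.66. For PRKCH and PRKCI it was -0.64 without CON4 and WD7, and for PRKCE and PRKCH -0.59 without WD7 and WD15. DGKG deviated little with PRKCE (r = 0.25) or PRKCZ (r = -0.18) once group means were removed, although over the 10 libraries as they stand these values were 0.76 and 0.64. Within groups DGKG ran opposite to PRKCH (r = -0.64) and PRKCD (r = -0.56) and went with PRKCA (r = 0.43).

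**Figure D3:**
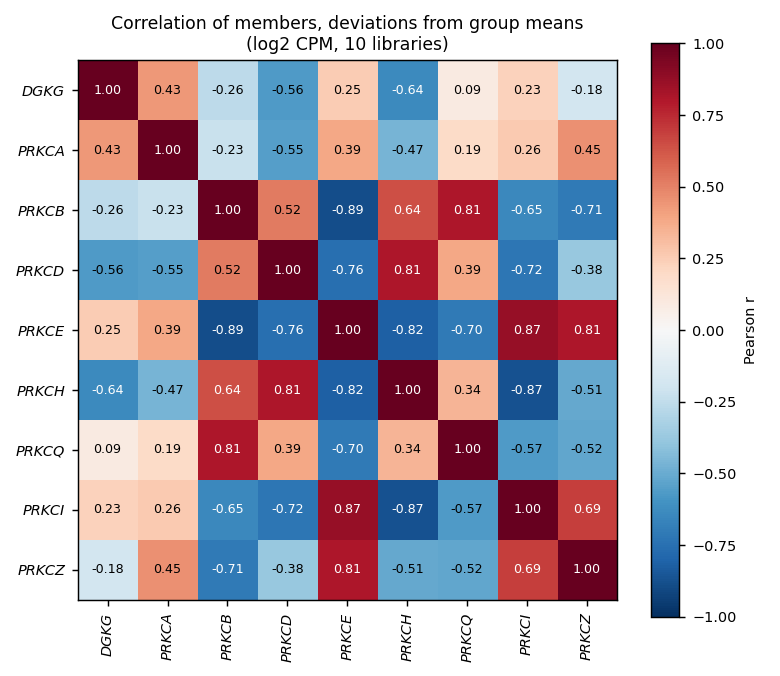
Pearson's r between the members' deviations from their group means (log2 CPM, 10 libraries), coloured from -1 (blue) to 1 (red), both axes listing the 9 members. PRKCE, PRKCZ and PRKCI form a block of positive r, and PRKCB, PRKCD and PRKCH have negative r with PRKCE, from -0.89 with PRKCB to -0.76 with PRKCD.

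Markers of other cell types moved with several PKC genes. Of 9 microglial markers, among them the colony stimulating factor receptor CSF1R and the transcription factor IRF8, all were above 0 in every library, 8 had a higher estimate in WD and none was called by edgeR, with 6 at an unadjusted p under 0.05 (9.31% over all genes tested) and 1 (CTSS) called by DESeq2's Wald test. CTSS, a lysosomal protease, had the highest estimate (log2 fold change 1.01, SE 0.24) and FGR, a Src family kinase, the lowest (-0.33, SE 0.42). Their summed level ran from 230 to 365 CPM in control, with a median of 237, and from 282 to 824 CPM in WD, with a median of 402 (two-sided exact permutation test over 252 assignments, p = 0.0556, or 0.194 adjusted over 7 marker lists). WD15 had the highest sum in the WD group and CON2 the highest in the control group.

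Each member's deviations from its group means were also set beside those of the log2 sums of 6 marker lists, and all pairs with an r of at least 0.5 in size (24 of 54) are given, again as descriptions. With all libraries kept, the microglial sum reached this with all 8 PKC genes, none of which was called between groups. It deviated with PRKCB (r = 0.90, rho = 0.55), PRKCD (r = 0.72, rho = 0.82), PRKCH (r = 0.72, rho = 0.50) and PRKCQ (r = 0.66, rho = 0.55). Without CON2 and WD15, the libraries farthest from the median of the sum, these values of r were 0.48, 0.83, 0.60 and 0.27. It deviated opposite to PRKCE (r = -0.87, rho = -0.77), PRKCZ (r = -0.66, rho = -0.55), PRKCI (r = -0.65, rho = -0.56) and PRKCA (r = -0.53, rho = -0.58), and without the same libraries r was -0.61, -0.27, -0.49 and -0.64. Without WD15 alone, r was 0.74 for PRKCB, 0.68 for PRKCD, 0.49 for PRKCH and 0.64 for PRKCQ. For PRKCE, PRKCZ, PRKCI and PRKCA it was then -0.72, -0.38, -0.53 and -0.30. PRKCH, PRKCZ and PRKCA thus fell short of 0.5 in size without this library. For DGKG, r was -0.48, or -0.39 without CON2 and WD15 and -0.28 without WD15 alone. The part of microglial RNA in the members' values was not tested.

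Endothelial markers (6 genes, among them the VEGF receptors FLT1 and KDR) summed to 114 to 188 CPM in control and 141 to 270 CPM in WD (two-sided exact permutation test, p = 0.111). Their deviations ran opposite to those of PRKCZ (r = -0.83, rho = -0.85), PRKCE (r = -0.62, rho = -0.71) and PRKCA (r = -0.55, rho = -0.38) and went with those of PRKCB (r = 0.53, rho = 0.59). Without CON3 and WD6 these values of r were -0.94, -0.85, -0.41 and 0.82. Without WD15 alone they were -0.77, -0.45, -0.42 and 0.30, so only PRKCZ still reached 0.5 in size. T cell markers were sparse, with 3 of 5 at 0 in at least 1 library, and summed to 10.3 to 37.1 CPM in control and 7.52 to 23.7 CPM in WD (p = 0.381, same exact test). Oligodendrocyte lineage markers (109 to 293 CPM in control, 109 to 239 CPM in WD, exact p = 0.690) and the GABA neurone markers GAD1 and GAD2 (20.1 to 33.7 CPM and 11.9 to 33.6 CPM, exact p = 0.595) overlapped between control and WD. Within groups, however, members deviated with both sums. DGKG went with the GABA neurone markers (r = 0.72, rho = 0.59, and r = 0.41 without WD6 and WD8), the highest r of DGKG with a marker list. The oligodendrocyte lineage sum went with PRKCD (r = 0.70, rho = 0.62), PRKCH (r = 0.60, rho = 0.56) and PRKCQ (r = 0.60, rho = 0.73), and without CON2 and CON4 these values of r were 0.75, 0.60 and 0.37. It went opposite to PRKCI (r = -0.62, rho = -0.68), PRKCE (r = -0.54, rho = -0.70) and DGKG (r = -0.54, rho = -0.61), and without the same libraries r was -0.40, -0.37 and -0.72. The part of these cells in the members' values was not tested. VIP, a marker of the suprachiasmatic nucleus, was at or below 2.39 CPM in every library (exact p = 0.175).

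Markers of the magnocellular lineage summed to 189 to 336 CPM in control and 525 to 881 CPM in WD (two-sided exact permutation test, p = 0.00794, the smallest that 5 against 5 allows, and 0.0556 adjusted over the 7 lists). Only 1 of its 3 measured genes was called, PDYN, the precursor of dynorphin (log2 fold change 1.93, SE 0.22), while SIM1 had -0.044 (SE 0.22) and OTP -0.58 (SE 0.24). PDYN made up most of the sum, with means of 162 of 273 CPM in control and 618 of 713 CPM in WD. The paper had already reported PDYN as raised by WD. The separation of the sum is therefore that of PDYN, and nothing is read from it about the lineage. Within groups, this sum went with PRKCI (r = 0.74, rho = 0.65), PRKCZ (r = 0.64, rho = 0.61) and PRKCE (r = 0.61, rho = 0.62), and without CON2 and WD8 these values of r were 0.78, 0.58 and 0.59. It went opposite to PRKCQ (r = -0.66, rho = -0.58) and PRKCB (r = -0.52, rho = -0.49), and without the same libraries r was -0.41 and -0.58. For DGKG, r with this sum was -0.055. The part of magnocellular RNA in the members' values was not tested.

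**Figure D4:**
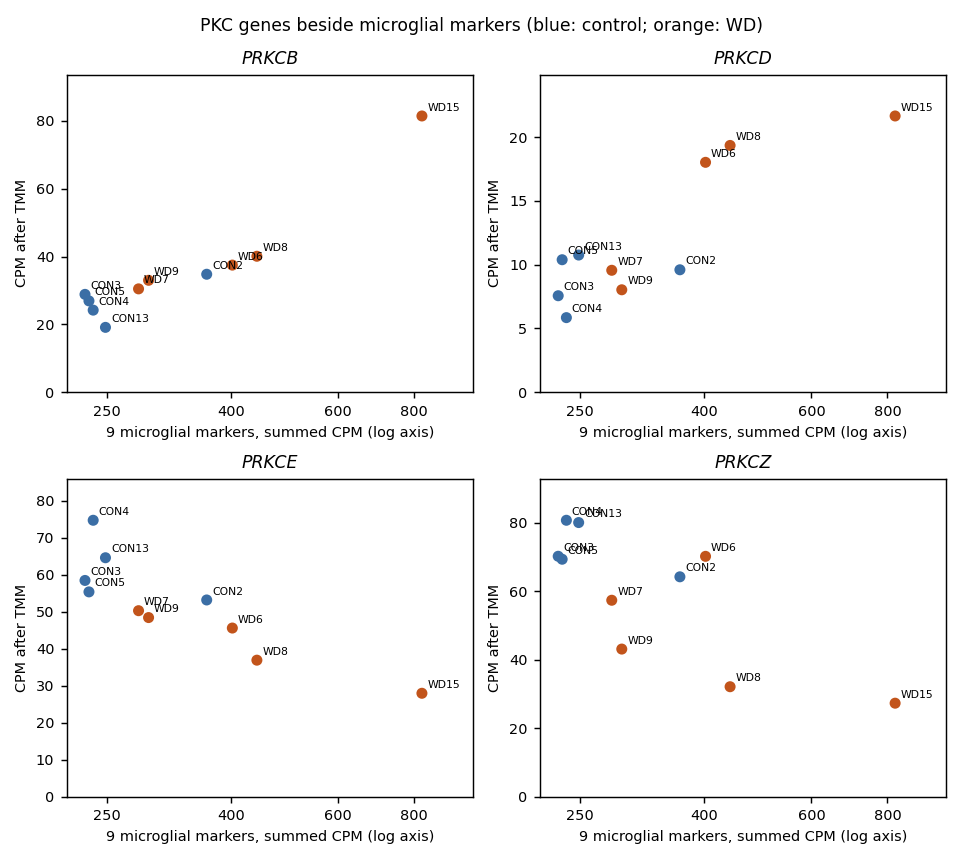
Level of PRKCB, PRKCD, PRKCE and PRKCZ (y axes, CPM after TMM normalization) against the summed level of 9 microglial markers (x axis, CPM, log scale) in each library, control in blue and WD in orange. WD15, with a sum of 824 CPM, has the highest PRKCB and PRKCD and the lowest PRKCE and PRKCZ of the 10 libraries.

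The enzymes that make, use or remove diacylglycerol and inositol phosphates were taken whole, by family, from the table of enzymes expressed in the control SON. Of 50 genes in 6 lists, 49 passed the filter, and none was called in either direction by edgeR or by DESeq2's Wald test. At an unadjusted p under 0.05 there were 5, against 9.31% of all genes. Their median log2 fold change was -0.018, beside a median of 0.017 over all genes tested, with 23 estimates above 0 and 26 below. The median of each of the 6 lists changed sign under at least 1 of 19 alternatives, so no direction is read from them. The adjusted p-values in edgeR's test ran from 0.229 to 0.995.

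Phospholipases C, which produce diacylglycerol, had a median of 0.052 over 12 tested genes, from PLCB4 at -0.55 (SE 0.20) to PLCB2 at 0.83 (SE 0.60). The diacylglycerol and monoglyceride lipases, which lead to and degrade the endocannabinoid 2-arachidonoylglycerol, had a median of -0.074 over 3 genes, with estimates from -0.20 (SE 0.19) for MGLL to -0.041 (SE 0.30) for DAGLB. Lipid phosphate phosphatases and phospholipases D, which handle phosphatidic acid, had a median of -0.075 over 8 genes, from LPIN1 (-0.38, SE 0.19) to PLD1 (0.39, SE 0.29).

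Phosphoinositide kinases, which make the substrate of phospholipase C, had a median of -0.046 over 9 genes, from PIP5K1C (-0.41, SE 0.17) to PIP4K2C (0.36, SE 0.20). Inositol polyphosphate phosphatases had a median of 0.017 over 10 genes, from INPP5J (-0.31, SE 0.41) to INPP5D (0.55, SE 0.27), a phosphatase of blood and microglial cells. Among the kinases related to PKC or acting on it, such as PDPK1, which phosphorylates PKC, the median was 0.020 over 7 genes, from PRKD1 (-0.091, SE 0.20) to PRKD3 (0.70, SE 0.21). Groups without overlap were found for 2 of the 49 genes, PRKD3 and INPP5B, as against 2.62% of all genes tested, and INPP5B was named after its values were seen.

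**Figure D5:**
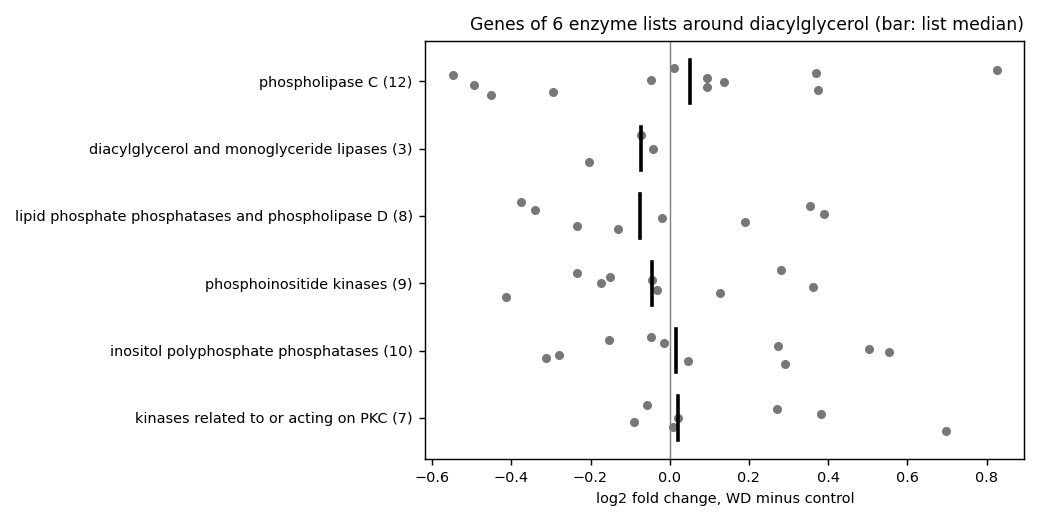
Log2 fold change (x axis, WD minus control, edgeR) of the 49 tested genes of 6 enzyme lists (rows, with the number of genes tested). Points are genes and black bars list medians, which lie between -0.075 and 0.052.

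A further 7 genes of the pathway had symbols only in the table sorted by the same contrast, so their differences are descriptions and support nothing. DGKK, another diacylglycerol kinase, had a mean of 4.02 CPM in control and 0.925 CPM in WD with no read pair in at least 1 library (log2 fold change -1.81, SE 0.64). RASGRP3, a diacylglycerol-activated exchange factor for Ras, had 1.04 (SE 0.27). UNC13A and UNC13C, which prime vesicles for release and bind diacylglycerol, had 0.63 (SE 0.19) and -0.97 (SE 0.27). The Gq and inositol trisphosphate receptor genes GNAQ, GNA15 and ITPR1 had 0.47 (SE 0.20), 0.91 (SE 0.39) and -0.39 (SE 0.18). None of the 7 was called by edgeR. All 7 were under 0.05 unadjusted, against 9.31% of all genes tested, as follows from a table sorted by this contrast. DESeq2's Wald test called 3 (RASGRP3, UNC13A and UNC13C), and 210 over all genes.

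The genes whose levels were most like DGKG over the 10 libraries were sought among 3325 genes that had a symbol and passed the filter. Many of these symbols come from the sorted table, so the pool is rich in genes that differ between groups. The highest r of log2 CPM with DGKG belonged to RTL9, a gene derived from a retrotransposon (0.95), OPRL1, the nociceptin receptor (0.93), LARS2, a mitochondrial leucyl-tRNA synthetase (0.93), MINAR1 (0.92) and C1QL4, a secreted C1q-like protein (0.92). Once group means were removed, r was 0.85 for RTL9 and 0.67 for LARS2, but 0.18 for OPRL1, 0.18 for MINAR1 and 0.49 for C1QL4. The lowest r with DGKG belonged to ZNF593 (-0.98), VGF, a precursor of secreted neuropeptides (-0.97), and CITED1, a transcriptional coregulator (-0.95), and within groups these were -0.82, -0.62 and -0.62.

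For PRKCB, the highest r belonged to SSH2, a cofilin phosphatase (0.98), ALOX5AP, needed for leukotriene synthesis (0.97), IRF8 (0.97), SMARCD2, a chromatin remodelling subunit (0.96), and CX3CR1, the fractalkine receptor of microglia (0.96). With group means removed these were between 0.93 and 0.97. That step keeps WD15, where PRKCB was at 81.5 CPM against 30.5 to 40.1 CPM in the other WD libraries. How far these values rest on WD15 was not tested. IRF8 is also among the 9 microglial markers, so its likeness and that of the marker sum are not separate observations.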

How the data were processed

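One library per camel was made from rostral SON RNA (5 control, 5 WD). The authors merged and trimmed reads with BBDuk, aligned them to Camdro2 with STAR and counted read pairs per gene with featureCounts, and deposited these counts without normalization. The authors also deposited normalized values, a signal in which each count is divided by 1 DESeq2 size factor per library, used here only as an alternative for levels. The annotation release, the strand setting and how read pairs on more than 1 gene were handled are not given in the sources used here, so overlapping genes are uncertain.

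WD and control were compared with edgeR 4.0.16 in R 4.3.3 (quasi-likelihood F test, robust, TMM, filterByExpr by group; Benjamini-Hochberg over 14432 genes, threshold 0.05). The standard error is the size of the log2 fold change divided by the square root of F. Log2 CPM used a prior count of 0.5. DESeq2 1.42.0 was an alternative. Marker sums, correlations and figures used Python (version 3.11.15), scipy 1.17.1, numpy 2.4.6, matplotlib 3.10.9 and pandas 2.3.3. The edgeR script was tested on simulated data. The smallest chi-square per degree of freedom between 2 libraries of a group was 8.03, so no 2 libraries agreed within sampling noise. The p-values of edgeR weigh the group difference against the spread between libraries, and those of the marker sums come from reassigning libraries to groups. Each camel gave a single library, so differences between animals, punches and libraries are not separated.

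The members, gene lists and tests were chosen with earlier results of these data known. Genes were named by a rule (the members, called list genes, the largest rise and fall of each list, and the genes most like DGKG and PRKCB). Outside this rule, INPP5B and PLCE1 were named after their values were seen, as were SIM1, GNAQ, UNC13A, UNC13C and other list genes that illustrate a list. The limits of 0.5 and 0.8 on r were chosen after the correlations were seen. Symbols pair 4316 IDs. Other genes of the family are not reported here. No gene lengths, coordinates or sequences of Camdro2 were used here.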

Additional observations from a re-analysis of the deposited data

Results flagged for a closer look

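Over 32 groups of 5 libraries (9 members and 7 marker sums, each in control and WD), 4 had a highest or lowest library far from the others for their range, and chance gives this in about 1 of 20 groups. DGKG was at 25.1 CPM in CON13, whereas the other controls ran from 30.7 to 32.5 CPM. PRKCB was at 81.5 CPM in WD15, and the other WD libraries from 30.5 to 40.1 CPM. PRKCI was at 32.6 CPM in CON4, and the other controls from 18.2 to 21.5 CPM. The 9 microglial markers summed to 365 CPM in CON2, and the other controls from 230 to 249 CPM.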

How the results depend on the processing

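DGKG kept its direction under all alternatives and was called under all but one. Scaling by library totals alone gave -1.12 with an adjusted p of 0.99998 in edgeR's test, so 0 members were called, with 10 genes called in all, 7 higher and 3 lower. Leaving out each library in turn gave -1.38 to -1.23 for DGKG, which was called each time. DESeq2's Wald test called 210 genes (116 higher, 94 lower) and depth group as a covariate 224 (122 higher, 102 lower), including 1 gene of the enzyme lists, PLCE1, named after its values were seen. Leaving out 1 library gave 40 to 102 genes, 20 to 50 higher and 19 to 52 lower, and moved the total by over 1.5 times without CON3 (40) and without CON5 (42). No PKC gene was called under any alternative that gave an adjusted p. PRKCI changed sign with library totals alone (0.052) and PRKCA without CON13 and WD6 together (-0.052). With 1 library left out, PRKCA ran from -0.030 to 0.099, PRKCI from -0.24 to 0.071 and PRKCQ from -0.30 to 0.055. Without WD15, PRKCE was at -0.43, PRKCD at 0.65 and PRKCH at 0.46. The median of the diacylglycerol and monoglyceride lipases ran from -0.26 (without WD15) to 0.0090 (library totals alone), and those of the other 5 enzyme lists also took both signs. With deposited normalized values, 2 members again had no overlap. The cause of these changes was not tested. No paired analysis was possible because control and WD libraries share no replicate number. Depth limits PRKCH, PRKCQ and PRKCD most, with 6, 8 and 9 read pairs in CON13.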
